A study of Homo sapiens with 6 samples.

Results

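The genes described here code for matrix glycoproteins, elastic fibre components, proteoglycans and the enzymes that modify or crosslink matrix proteins, collagens themselves left aside. They were chosen by symbol, and all 43 listed symbols were found among the 60660 gene IDs of the count files. The cells sequenced were 12Z, a line established from the epithelium of endometriosis lesions, a disorder in which tissue resembling the uterine lining grows outside the uterus. Control cells received a non-targeting siRNA and knockdown cells received LINC01133a, an siRNA against the long noncoding RNA LINC01133, both by Lipofectamine RNAiMAX and with the targeting oligo at 10 nM. RNA was taken 72 h after transfection from 3 libraries per group, described as biological replicates, and the comparison asks how loss of LINC01133 affects expression in these cells. All values come from a single cell line grown on culture plates, a single targeting siRNA and a single time point, and no untransfected cells were analysed here.

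The extracellular matrix is a meshwork of collagen fibres, elastic fibres and glycoproteins, with proteoglycans that fill the space and bind growth factors. Collagen chains are hydroxylated on prolines and lysines inside the cell by enzymes of the P4HA and PLOD families, and outside the cell lysyl oxidases and the transglutaminase TGM2 join neighbouring matrix proteins by covalent bonds. In endometriosis, matrix build-up and its breakdown accompany the attachment, invasion and fibrosis of lesions.

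The siRNA strands are shown because a strand loaded into the silencing machinery can also lower transcripts that match its seed, bases 2 to 8, given here in capitals.
LINC01133a guide strand: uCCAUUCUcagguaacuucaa
LINC01133a passenger strand: gAAGUUACcugagaauggatt
Of the 38 matrix genes that could be tested, 0 held the 8-base match AGAATGGA to the guide seed in the 3′ UTR of their canonical transcript, against 5.77% of 12538 tested genes with such a UTR. The 7-base match AGAATGG was present in 5 of 38 (BGN, FBN1, MATN2, P4HA1 and TNC), or 13.2%, against 17.1% of all. Of these, MATN2 and P4HA1 were lower in knockdown cells, and BGN, FBN1 and TNC did not pass the test. The 8-base match GTAACTTA to the passenger seed was present in 3 of 38, or 7.89%, against 3.36% of all. These were DCN, which was lower in knockdown cells, and SPARC and THBS2, which did not pass the test. Their sites are given on GRCh38 with the match in capitals.
DCN, chr12:91145364-91145393, minus strand: atttgagtatgGTAACTTAtgtcatctatg
SPARC, chr5:151663370-151663399, minus strand: cattcttagctGTAACTTAactattaaggc
THBS2, chr6:169216768-169216797, minus strand: tccatttaccaGTAACTTAttttaaatatg
The 7-base match GTAACTT to the passenger seed was present in 8 of 38, or 21.1%, against 13.6% of all. Besides DCN, SPARC and THBS2 these were LOX and GPC6, which were lower in knockdown cells, SDC2, which was higher, and FBN1 and VCAN, which did not pass the test. TGM2 and SPOCK1, the matrix genes of the 43 that passed the cutoffs for differential expression below, held neither 7-base match. The share of all genes with a match that changed was not computed.

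LINC01133 itself had normalized counts of 813, 818 and 837 in control and 130, 131 and 138 in knockdown libraries, a log2 fold change of -2.63 (SE 0.070, adjusted p = 3.5e-11). Normalized counts are counts divided by each library's effective size and brought to a common scale, and fold changes are given as knockdown against control. The libraries held 27742562 to 37551194 counts on genes, and the matrix genes took 1.34% to 1.47% of them. Epithelial keratins were abundant and CDH1 was expressed, but EPCAM, CLDN4 and ESRP1 were near 0, with mean control counts of 13.6, 14.8 and 0.316. All 9 fibroblast or stromal markers were expressed, with COL1A1 at 87700 and COL3A1 at 125500 in control cells, so the epithelial label rests on the keratins and CDH1. The summed level of the 8 epithelial markers was 200000 to 210800 in control and 127700 to 133700 in knockdown libraries. The paper saw the loss of CDH1 by qRT-PCR as well, but could not show the fall of KRT7 and KRT19 in its follow-up measurements. The stromal sum, mostly COL1A1 and COL3A1, was 224000 to 243800 in control and 227000 to 229600 in knockdown libraries, while within that list PDGFRA (log2 fold change -1.52), THY1 (-0.38) and PDGFRB (-0.32) fell and MME (0.82) rose. Of 6 endothelial and 6 immune markers, 2 each passed the filter on low counts, with sums of 82.9 to 99.4 against 184 to 220 and of 1618 to 1823 against 847 to 907. These sums were mostly CDH5 (log2 fold change 1.45) and CD14 (-0.98), and CD3E and MS4A1 were at 0. The part of these marker changes in the results was not tested, and in bulk RNA fewer cells of a type and less RNA per cell cannot be told apart.

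Control library 2 stood apart from the other control libraries. Its counts differed from those of control 1 and 3 by a chi-square of 11.9 and 13.1 per degree of freedom, against 2.20 to 3.75 for the other pairs of libraries within a group. It held somewhat more counts on long transcripts. Over 1079 genes above 8 kb with a mean count of at least 50, its median log2 ratio to the other controls was 0.131. The matrix genes include several long transcripts. In the 6 tested matrix genes with a canonical transcript over 8 kb (FN1, TNC, FBN1, FBN2, VCAN and HSPG2), control 2 lay 1.41-fold to 1.86-fold above the mean of controls 1 and 3. Across the other 32 tested genes the median log2 ratio was 0.025, with a range of -0.685 to 0.361. The cause of the larger excess in the 6 long matrix genes was not tested. Values without control 2 are therefore given beside the results they alter.

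**Figure D1:**
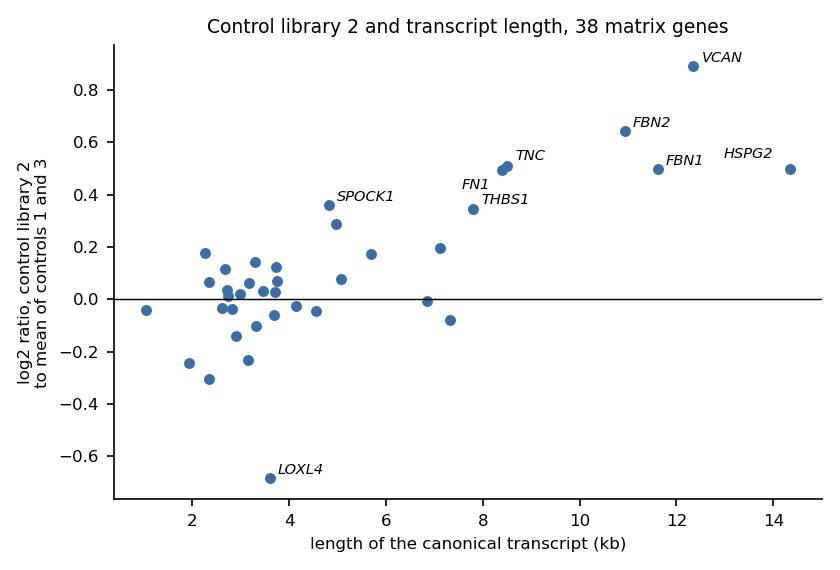
Log2 ratio of the normalized count in control library 2 to the mean of control libraries 1 and 3 (vertical axis) against the length of the canonical transcript in kb (horizontal axis) for the 38 tested matrix genes, 1 point per gene. All 6 genes over 8 kb lie above 0, between 0.494 and 0.892.

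Knockdown of LINC01133 left most of these genes expressed and shifted many of them by a modest amount. The strongest changes were falls in TGM2, a crosslinking transglutaminase, to 30.6% of control and in SPOCK1, a testican-type proteoglycan, to 55.3%. Within the lysyl oxidase family LOX fell while LOXL1 and LOXL2 rose, and all 3 genes of collagen prolyl 4-hydroxylase alpha subunits fell. In the quasi-likelihood test of edgeR, adjusted by Benjamini-Hochberg over 15155 genes, 8 of 38 tested matrix genes had a higher level at an adjusted p under 0.05 and 16 a lower one, while 14 did not pass. The number higher was 5 with DESeq2 and 4 without knockdown library 1. Of all genes tested, 23.3% were higher and 25.0% lower by the same rule. With a fold change over 1.5 as well, the cutoffs for differential expression (DE), 0 were higher and 2 lower, against 5.30% and 6.43% of all genes. The 8 higher genes also had an unadjusted p under 0.05, with 0 of them past the fold change, and DESeq2 likewise called 0 higher and 2 lower. The median log2 fold change of the 38 genes was -0.12, with a range of -1.71 to 0.52, against 0.0032 over all genes. Every control library lay on the same side of every knockdown library for 24 of 38 genes, against 57.3% of all genes.

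**Figure D2:**
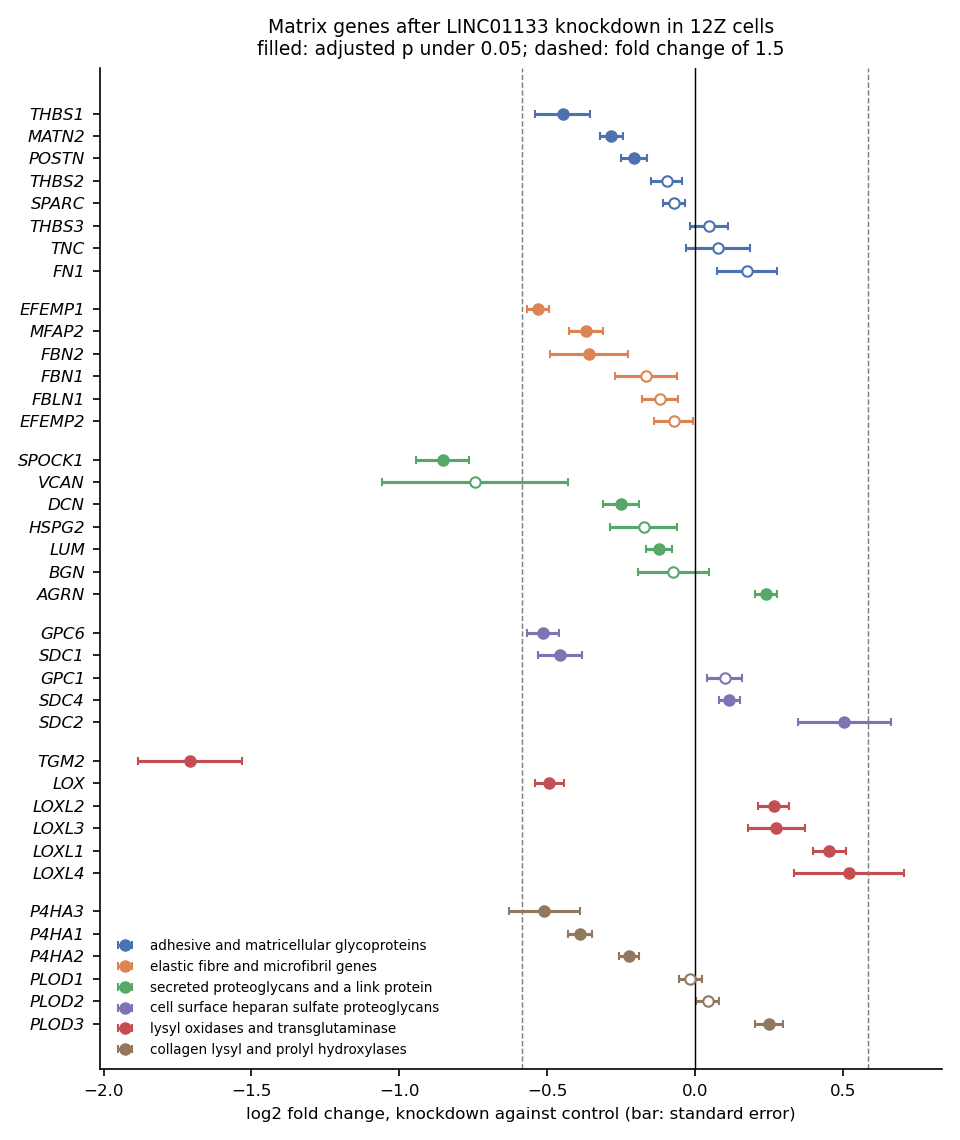
Log2 fold change, knockdown against control, with its standard error (horizontal axis) for each of the 38 tested matrix genes, coloured and grouped by role. Filled points had an adjusted p under 0.05 and dashed lines mark a fold change of 1.5; SPOCK1 and TGM2 alone lie beyond a dashed line with a filled point.

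To compare levels between genes, CPM, the counts scaled to a common library total, were divided by the length of the canonical transcript in kb. On this scale SPARC, a collagen-binding glycoprotein, was the highest in control cells at 1591, above 99.9% of all genes tested. It was followed by THBS2 at 384, POSTN at 276, PLOD2 at 190, LOXL2 at 147, LUM at 134 and P4HA1 at 126. Of the 38 genes, 10 lay above the 95th percentile of tested genes. Both DE genes were of lesser level, with SPOCK1 at 17.7 and TGM2 at 0.621, and VCAN was the lowest of the tested genes at 0.0797.

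**Figure D3:**
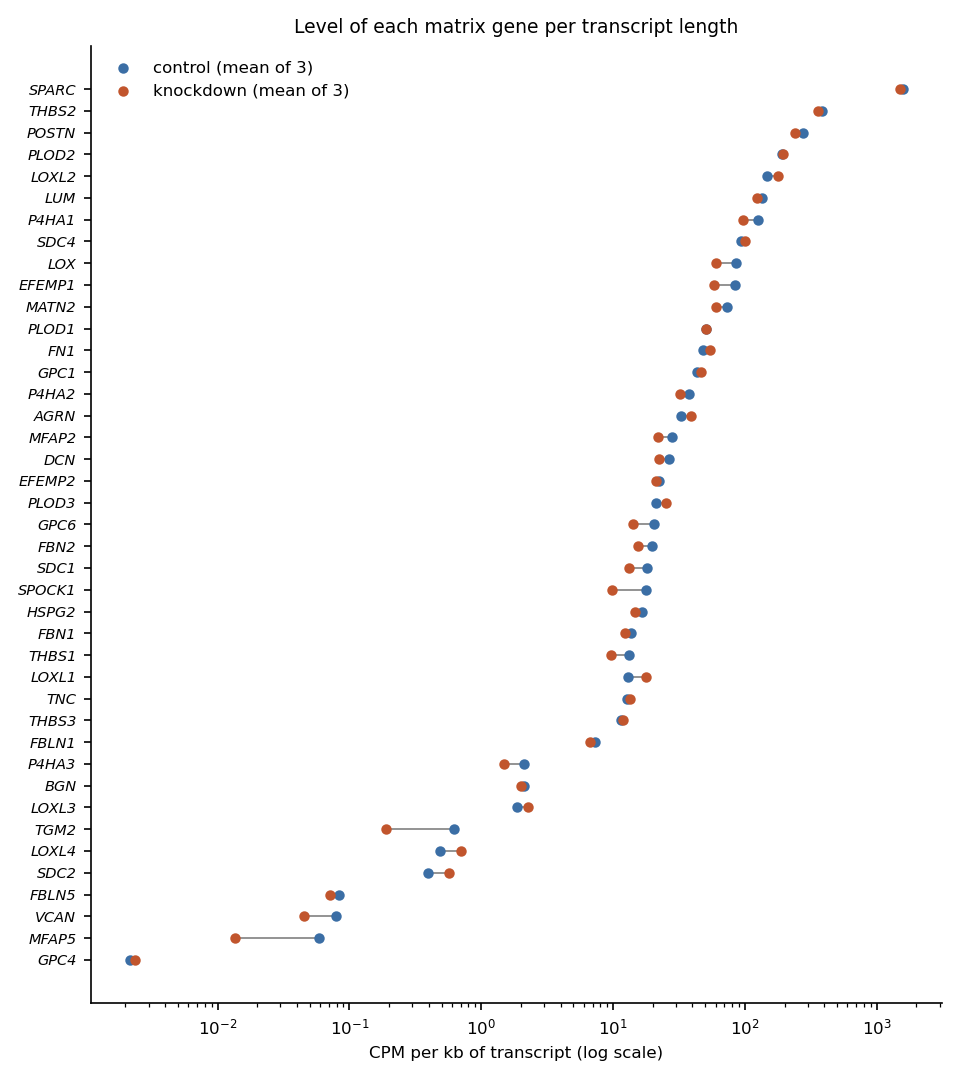
Level of each matrix gene in CPM per kb of transcript (horizontal axis, log scale), as the mean of the 3 control and of the 3 knockdown libraries. The genes span from SPARC at 1591 in control cells to GPC4 at 0.00215, and TGM2 shows the widest gap between the groups among tested genes; HAPLN1 and ELN, at 0 in control cells, are left out.

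The lysyl oxidases oxidise lysines of collagen and elastin so that crosslinks can form, and the family did not move in a single direction. LOX (ENSG00000113083.15, chr5:122063195-122078413, minus strand), its best-known member, had normalized counts of 13740, 14560 and 13810 in control and 10200, 10510 and 9203 in knockdown libraries. Every knockdown library lay below every control library, and the log2 fold change was -0.49 (SE 0.048, adjusted p = 2.5e-06). LOXL1, which is needed for elastic fibre upkeep, moved the other way, with 1030, 1013 and 902 in control and 1346, 1395 and 1287 in knockdown libraries. The groups did not overlap, and the log2 fold change was 0.45 (SE 0.056, adjusted p = 2.2e-05).

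LOXL2, known for crosslinking basement membrane collagen, was the most abundant of the family and rose from 17710 ± 1000 (SD, n = 3, as for all such values here) to 21290 ± 1438, with a log2 fold change of 0.27 (adjusted p = 9.1e-04). LOXL4, a scarce relative, had 61.5, 40.6 and 69.4 in control and 93.2, 74.8 and 78.3 in knockdown libraries. Each knockdown library exceeded each control library, with a log2 fold change of 0.52 (SE 0.19, adjusted p = 0.034). LOXL3 had 224 ± 24.0 in control and 271 ± 14.7 in knockdown cells (log2 fold change 0.27, adjusted p = 0.033). Without control 2 the calls for LOXL3 and LOXL4 did not hold (log2 fold change 0.25 and 0.34, adjusted p = 0.053 and 0.12). They were not made with DESeq2 either (adjusted p = 0.086 for each). Across 13 alternatives each gene lost its call in 6, among them other single libraries left out. At the LOXL3 locus 67.4% of the stranded counts lay on the other strand, where DOK1 and HTRA2 overlap it, and these were not counted for LOXL3.

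Set against each other within a library, where normalization cancels, LOXL2 had 1.28, 1.29 and 1.21 times the counts of LOX in control and 2.16, 2.12 and 2.13 times in knockdown libraries. This ratio was chosen after the values were seen and is given without a test. LOX made up 42.0% to 43.5% of the family's summed counts in control and 30.1% to 30.5% in knockdown libraries. The family's summed normalized count, at 31740 to 34580 in control and 30460 to 34490 in knockdown libraries, overlapped between the groups.

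TGM2 (ENSG00000198959.12, chr20:38127385-38166578, minus strand), which joins glutamine and lysine side chains of fibronectin and other proteins, had normalized counts of 93.7, 114 and 92.2 in control and 33.9, 24.3 and 32.9 in knockdown libraries. All knockdown libraries were far below all control libraries. The log2 fold change was -1.71 (SE 0.18, adjusted p = 4.4e-06), and TGM2 was DE in each of 13 alternative analyses, with values of -1.81 to -1.57.

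**Figure D4:**
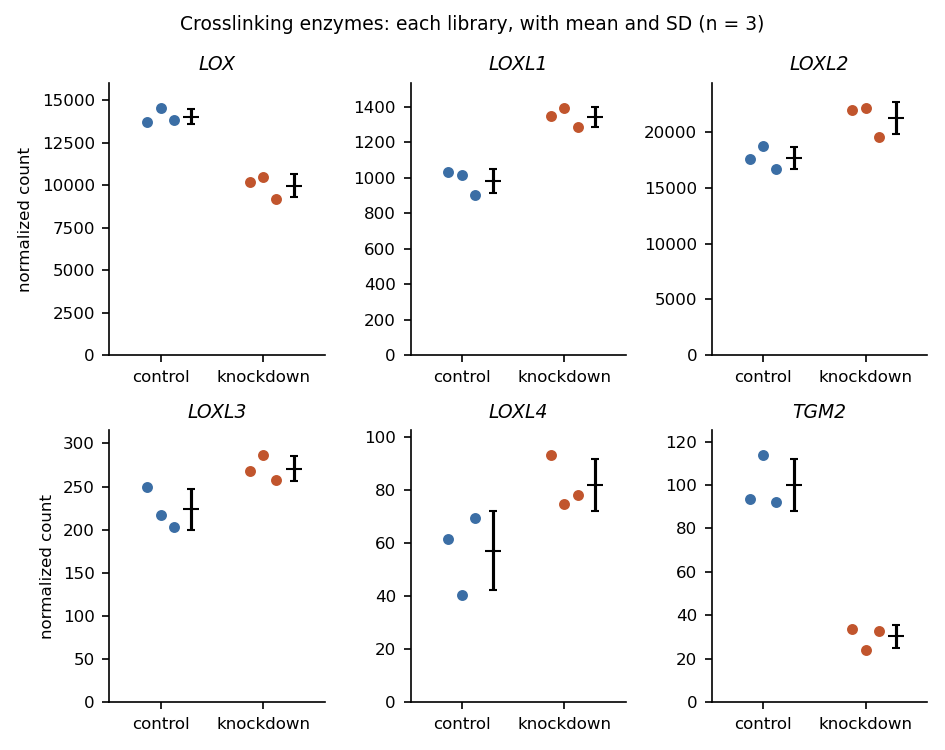
Normalized counts (vertical axis, from 0) of LOX, LOXL1, LOXL2, LOXL3, LOXL4 and TGM2 in each of 3 control and 3 knockdown libraries, with the mean and SD beside the points. LOX and TGM2 are lower in all knockdown libraries and the 4 LOX-like genes are higher, with no overlap between the groups.

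The prolyl 4-hydroxylase alpha subunits, whose product stabilises the collagen triple helix, were all lower in knockdown cells. P4HA1 had 10820, 11230 and 11460 in control and 8383, 8943 and 8270 in knockdown libraries. The groups were clearly apart, with a log2 fold change of -0.39 (SE 0.040, adjusted p = 4.5e-06). P4HA2 fell from 5511 ± 107 to 4720 ± 35.5 (log2 fold change -0.22, adjusted p = 1.6e-04). P4HA3, at far lower counts, had 148, 168 and 149 in control and 109, 119 and 96.4 in knockdown libraries, with no overlap and a log2 fold change of -0.51 (SE 0.12, adjusted p = 3.2e-03). At the P4HA3 locus 85.0% of stranded counts lay on the other strand, which carries the antisense gene P4HA3-AS1.

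Of the 3 lysyl hydroxylases, which prepare collagen lysines for crosslinking and sugar attachment, 1 rose and 2 did not pass. PLOD3 rose from 1935 ± 64.1 to 2298 ± 120 (log2 fold change 0.25, adjusted p = 6.4e-04). PLOD2, the enzyme of telopeptide lysines and the most abundant hydroxylase, had a log2 fold change of 0.04 with a 95% interval of -0.04 to 0.13. For PLOD1 the log2 fold change was -0.02 with an interval of -0.10 to 0.06. The summed P4HA counts were 0.567, 0.547 and 0.573 of the summed PLOD counts in control and 0.427, 0.433 and 0.436 in knockdown libraries, a ratio likewise chosen after the values were seen and not tested.

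LOX, P4HA1 and PLOD2 are textbook targets of hypoxia-inducible factors, whose core motif can read ACGTG or GCGTG. Only the ACGTG form was searched, so genes without it here may hold the other form. The windows of these 3 promoters that hold ACGTG on either strand are shown with the match in capitals (RefSeq, GRCh38.p14). CACGT is the same motif on the opposite strand, and the second and the third LOX windows overlap each other.
LOX, chr5:122078427-122078456, minus strand: gctccctgtgcaACGTGtctggggggagga
LOX, chr5:122078358-122078387, minus strand: ctgtccgccttgCACGTttccaatcgcatt
LOX, chr5:122078340-122078369, minus strand: tccaatcgcattACGTGaacaaatagctga
LOX, chr5:122078284-122078313, minus strand: gtaactttgcaaACGTGccagaaagtttaa
P4HA1, chr10:73096935-73096964, minus strand: tgtgatcgagctCACGTagcgagggctgca
PLOD2, chr3:146161367-146161396, minus strand: cgtgagcctccaCACGTagccgcaggcagc
PLOD2, chr3:146161313-146161342, minus strand: caaacagtccagACGTGgggcccaggaggg
The motif was present in 7 of 28 tested matrix genes with a promoter of 300 bases in the RefSeq table (25.0%), against 26.9% of 10910 tested genes. Of the genes that held it, 5 fell (LOX, P4HA1, MFAP2, GPC6 and FBN2, the last not without control 2) and 2 did not pass the test (PLOD2 and THBS2). Of the genes without it, 4 fell (P4HA2, POSTN, SDC1 and THBS1), 5 rose (LOXL1, LOXL3, LOXL4, PLOD3 and SDC4) and 12 did not pass. No RefSeq promoter was at hand for SPOCK1, TGM2, EFEMP1, DCN, LUM, P4HA3, MATN2, LOXL2, AGRN and SDC2. The P4HA2 and FBN1 windows lay 762 and 739 bases from the canonical start. Shares of all genes with the motif that fell or rose were not computed, and a link of motif and direction was not tested. The letters TGANTCA, an AP-1 motif, were present in 1 of 28 (POSTN) against 4.18% of all promoters. A match describes the letters only.

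Among secreted proteoglycans and the link protein, 3 of 7 tested fell, 1 rose and 3 did not pass. SPOCK1 (ENSG00000152377.14, chr5:136975298-137598379, minus strand) had normalized counts of 2706, 3234 and 2331 in control and 1583, 1555 and 1427 in knockdown libraries. The lowest control library was well above the highest knockdown library, and the log2 fold change was -0.85 (SE 0.090, adjusted p = 5.1e-06). Without control 2, where SPOCK1 was highest, the log2 fold change was -0.73 and the gene was still DE.

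DCN, a small leucine-rich proteoglycan that binds collagen fibrils and TGF-beta, fell from 5889 ± 362 to 4957 ± 464 (log2 fold change -0.25, adjusted p = 4.3e-03). LUM, its relative in collagen fibril assembly, went from 11590 ± 634 to 10640 ± 313 (log2 fold change -0.12, adjusted p = 0.032), a call not held without control 2 (adjusted p = 0.061). AGRN, a basement membrane heparan sulfate proteoglycan, rose from 7832 ± 302 to 9244 ± 108 (log2 fold change 0.24, adjusted p = 1.7e-04). HSPG2, the perlecan gene, was at a log2 fold change of -0.17 (adjusted p = 0.22), which went to 0.0084 without control 2. VCAN, a hyaluronan-binding proteoglycan, had few counts, 26.5, 46.2 and 22.8 in control and 24.6, 16.5 and 13.6 in knockdown libraries, with overlap and a log2 fold change of -0.74 (adjusted p = 0.066), or -0.40 without control 2. It passed the test when control 3 (-0.93) or knockdown 1 (-1.04) was left out, or without a filter on low counts. BGN had 160 ± 23.1 and 154 ± 10.9 (adjusted p = 0.64).

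Heparan sulfate proteoglycans of the cell surface, which act as co-receptors for growth factors and matrix proteins, moved in both directions. GPC6, a glypican held by a lipid anchor, had 4478, 5109 and 4427 in control and 3366, 3288 and 3143 in knockdown libraries. The groups did not overlap, with a log2 fold change of -0.51 (SE 0.053, adjusted p = 4.3e-06). SDC1, the syndecan typical of epithelia, had 2024, 1904 and 1619 in control and 1378, 1417 and 1239 in knockdown libraries. It was lower in every knockdown library, with a log2 fold change of -0.46 (SE 0.073, adjusted p = 1.9e-04). Of the epithelial markers, keratins and CDH1 were also lower in every knockdown library. The scarce markers EPCAM (log2 fold change 0.31, adjusted p = 0.46) and CLDN4 (-0.70, adjusted p = 0.13) did not pass the test. A shift of the cells from an epithelial to a mesenchymal type was not tested.

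SDC2, the syndecan more typical of mesenchymal cells, had only 42.6, 40.6 and 44.6 in control and 61.0, 59.2 and 61.3 in knockdown libraries. Its groups were apart, with a log2 fold change of 0.50 (SE 0.16, adjusted p = 0.017), but DESeq2 did not call it (adjusted p = 0.12), nor was it called without control 2 (0.050) or knockdown 1 (0.051). SDC4, a syndecan of focal adhesions and by far the most abundant of the 3, rose from 7887 ± 191 to 8539 ± 136 (log2 fold change 0.11, adjusted p = 0.017), a call not held without knockdown 1 (adjusted p = 0.059) or knockdown 2 (0.073). GPC1 had 5212 ± 406 and 5583 ± 375 (adjusted p = 0.18).

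**Figure D5:**
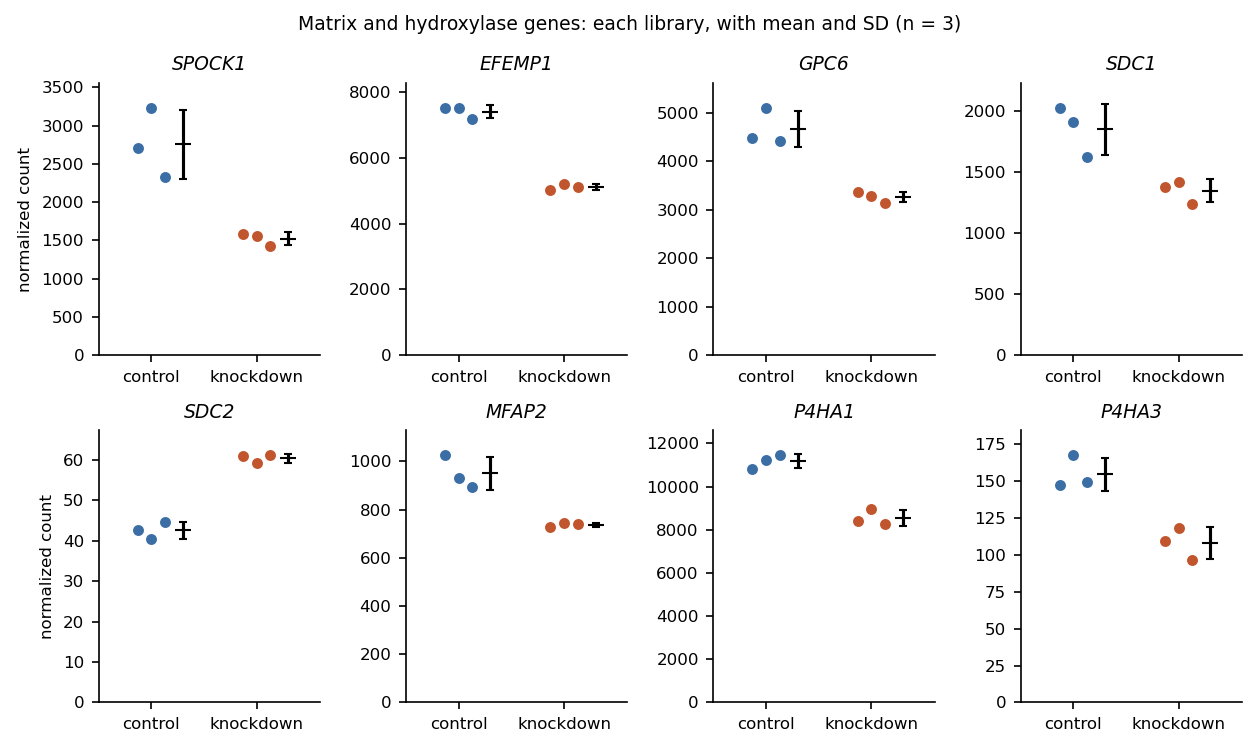
Normalized counts (vertical axis, from 0) of SPOCK1, EFEMP1, GPC6, SDC1, SDC2, MFAP2, P4HA1 and P4HA3 in each of 3 control and 3 knockdown libraries, with the mean and SD beside the points. The groups do not overlap in any panel, and SDC2 is the panel in which the knockdown libraries are higher.

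Elastic fibres consist of elastin on a scaffold of fibrillin microfibrils. All 6 tested genes of this group had a log2 fold change below 0, which turned to 0.02 for FBN1 without control 2 and for EFEMP2 without control 1, and 3 passed the test. EFEMP1, the fibulin-3 gene, had 7530, 7525 and 7173 in control and 5040, 5218 and 5118 in knockdown libraries. The libraries of each group lay close together and the groups far apart, giving a log2 fold change of -0.53 (SE 0.037) and the smallest adjusted p of the set, 1.1e-07. MFAP2, a microfibril-associated glycoprotein, had 1027, 933 and 893 in control and 728, 743 and 740 in knockdown libraries, lower in every knockdown library (log2 fold change -0.37, SE 0.058, adjusted p = 1.7e-04).

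FBN2, a fibrillin of developing tissue, had 5723, 9226 and 6085 in control and 5643, 4985 and 5752 in knockdown libraries. The groups overlapped and control 2 was far above the rest, so that the log2 fold change of -0.36 (SE 0.13, adjusted p = 0.039) became -0.12 (adjusted p = 0.061) without it. For FBN1, the main adult fibrillin, the log2 fold change was -0.17 (adjusted p = 0.21). EFEMP2 (1399 ± 159 and 1332 ± 33.5) and FBLN1 (681 ± 42.8 and 628 ± 14.2) had adjusted p values of 0.39 and 0.12. Both passed the test without control 2, at log2 fold changes of -0.15 and -0.17 and adjusted p values of 0.025 and 0.036.

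Elastin itself was at 0 counts in 5 of the 6 libraries and at 1 in the other, and 4 further genes were too low to test. MFAP5, a microfibril glycoprotein, had 7, 5 and 4 raw counts in control and 2, 1 and 1 in knockdown libraries. FBLN5, a fibulin of elastic fibre assembly, had 3 to 11 and 1 to 12. GPC4 had 1 count in 1 library of each group, and HAPLN1, the hyaluronan link protein, had 0 in every library, where a count of 0 allows up to 3 counts per library.

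Among the adhesive and matricellular glycoproteins, 3 of 8 fell, 0 rose and 5 did not pass. At an unadjusted p under 0.05 the 0 was the same, and DESeq2 called 0 higher, while without control 2 FN1 and TNC were called higher. THBS1, a thrombospondin that activates latent TGF-beta, had 3254, 3896 and 2873 in control and 2585, 2578 and 2162 in knockdown libraries. Its groups did not overlap, with a log2 fold change of -0.45 (SE 0.092, adjusted p = 1.3e-03), or -0.33 without control 2. THBS2, at far higher counts, had 70920 ± 5381 and 66310 ± 3112 (log2 fold change -0.10, adjusted p = 0.14), and THBS3 had 1162 ± 113 and 1204 ± 57.6 (adjusted p = 0.59). Of the thrombospondins, then, THBS1 passed the test, and whether it differed from the other two was not tested.

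POSTN, the periostin gene of fibrotic matrix, fell from 29530 ± 1794 to 25550 ± 688 (log2 fold change -0.21, adjusted p = 1.6e-03). MATN2, a filament-forming matrilin, fell from 9835 ± 135 to 8077 ± 325 (log2 fold change -0.28, adjusted p = 4.5e-05). SPARC had 177200, 180500 and 175400 in control and 171300, 175000 and 160500 in knockdown libraries, without overlap but with an adjusted p of 0.12 (log2 fold change -0.07).

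FN1, the fibronectin gene, had 11710, 16100 and 11170 in control and 15280, 14490 and 14190 in knockdown libraries. Control 2 was the highest of all 6, whereas controls 1 and 3 lay below every knockdown library. With all libraries the log2 fold change was 0.17 (SE 0.10, adjusted p = 0.17), and without control 2 it was 0.36 (adjusted p = 1.1e-07). FN1 also passed without a filter on low counts, at 0.18 (adjusted p = 6.9e-05). For several genes that fit gave far smaller adjusted p values at near-equal fold changes, such as 3.8e-223 against 1.8e-07 for CEMIP. This pass of FN1 therefore carries little weight. TNC, the tenascin-C gene of remodelling tissue, had 3176, 4389 and 2987 in control and 3933, 3721 and 3446 in knockdown libraries. Its order was the same, with a log2 fold change of 0.08 (adjusted p = 0.58) that became 0.26 (adjusted p = 1.2e-04) without control 2.

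The partners of these genes were described from 4 lists of 173 related genes, of which 114 were tested, 6 were DE higher and 20 DE lower, with a median log2 fold change of -0.09. Of all genes tested, 5.30% were DE higher and 6.43% lower, beside which the counts of each list may be read. Of 33 tested genes of other matrix glycoproteins, 2 were DE higher and 5 lower, with the largest falls in HMCN1 (hemicentin, -1.07), TNXB (tenascin-X, -0.93) and FRAS1 (a basement membrane protein, -0.80). The falls in HMCN1, TNXB and FRAS1 were smaller without control 2, at -0.68, -0.74 and -0.53, so that FRAS1 no longer passed the fold change cutoff. Of 15 tested genes of other proteoglycans and link proteins, 1 was DE higher and 6 lower, among them TGFBR3 (betaglycan, -0.99), PODN (podocan, -0.95) and NRP1 (neuropilin, -0.94).

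Of 26 tested partners of collagen and elastin processing, 2 were DE higher and 1 lower. TLL1, a procollagen proteinase that also activates lysyl oxidase precursors, rose from 181 to 370 normalized counts (log2 fold change 1.03, adjusted p = 4.8e-07). PCOLCE2, an enhancer of procollagen cleavage, fell from 178 ± 26.1 to 75.4 ± 3.16 (-1.23, adjusted p = 7.0e-06), and COLGALT2, which adds galactose to hydroxylysine, rose by 0.71 on the log2 scale (adjusted p = 3.0e-03). Of 40 tested enzymes of glycosaminoglycans and hyaluronan, 1 was DE higher and 8 lower. CHST11, a chondroitin sulfotransferase, fell from 109 ± 15.9 to 29.8 ± 4.76 (-1.86, adjusted p = 2.3e-06). CEMIP, which takes part in hyaluronan breakdown, fell from 6974 ± 1302 to 2550 ± 242 (-1.45, adjusted p = 1.8e-07), and SULF2, which trims heparan sulfate outside the cell, fell from 2580 ± 126 to 1170 ± 25.5 (-1.14, adjusted p = 1.1e-09).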

How the data were processed

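Per the labels and the paper's methods, poly-A RNA was sequenced as paired reads, and the sources name different library kits. The authors aligned reads with STAR 2.7.6a to GRCh38.p13 with GENCODE v36 genes and deposited raw counts of uniquely mapped read pairs per gene. Counts on the strand opposite to that of the first read, with 93.9% to 94.1% of stranded counts, were used. Pairs outside genes (4.38% to 5.22%) or ambiguous (3.88% to 4.23%) were left out of library sizes. Of 60660 gene IDs, 60419 matched a symbol. Knockdown was compared with control by edgeR 4.0.16 (R 4.3.3), with filterByExpr (minimum count 10), TMM factors of 0.968 to 1.03, quasi-likelihood tests with no term but condition, and adjusted p-values by Benjamini-Hochberg over 15155 genes. The standard error is the absolute log2 fold change over the root of F, and 95% intervals use the test's degrees of freedom. Simulated counts were used to check whether the test recovers changes beyond a fold change of 1.5 in genes that are not scarce. Smaller changes, changes in scarce genes and the excess in control 2 were not simulated. Separate cultures were not stated, so p-values measure the spread between these libraries.

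Positions, transcript lengths and 3′ UTRs came from GENCODE v44, and promoters (250 bases before to 50 after the start) from RefSeq. Members and lists were chosen with earlier results of these data known. Members past the DE cutoffs, or with an adjusted p under 0.05 and an absolute log2 fold change over 0.3, were given by library. Up to 3 DE genes per related list, with the largest changes and a mean of at least 50, were named. Library values of FN1, TNC, SPARC and VCAN were added after they were seen. Alternatives were DESeq2 1.42.0, other scalings and filters, the unstranded column, a replicate block, a fold change of 1.5 as the null hypothesis, and each library left out.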

Additional observations from a re-analysis of the deposited data

How the results depend on the processing

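Across 13 alternatives, 18 of the 24 matrix genes with an adjusted p under 0.05 kept it in every one, and all 24 kept their direction. LOXL3, LOXL4, FBN2, LUM, SDC2 and SDC4 lost it in at least 1. Of the 14 others, 11 gained it in at least 1, VCAN among them without a filter. FBN1 and HSPG2 gained it only in that unfiltered fit. Its adjusted p values were extreme for several genes at near-equal fold changes, so passes there carry little weight. SPOCK1 and TGM2 were DE in each of the 13. With DESeq2, 5 matrix genes were higher, and leaving out 1 library gave 4 to 8, the lowest without knockdown 1. The number DE higher was 0 to 1 when a library was left out, the 1 being LOXL4 without control 3 or without knockdown 2. The fold change of 1.5 as the null hypothesis, run for calls only, kept SPOCK1 (adjusted p = 0.033) and TGM2 (2.6e-04) and left 0 matrix genes higher. It left 2 related genes higher and 12 lower, and 174 higher and 404 lower of all genes against 803 and 975. Library size alone gave 1030 higher and 814 lower of all genes, with 10 matrix genes higher and 14 lower at an adjusted p under 0.05. DESeq2 gave 604 and 858. For these changes the cause was not tested. Deviations from group means correlated at -0.015, 0.005 and 0.057 for libraries of the same number, so the numbers were not taken as pairs. With a replicate block, 9 matrix genes were higher and 18 lower, with GPC1 (adjusted p = 0.048), SPARC (0.047) and THBS2 (0.038) added, and 0 and 2 were DE. Few counts limit LOXL4, SDC2, TGM2 and VCAN, and values of the matrix genes with transcripts over 8 kb depend on control 2.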
